A study of Mus musculus with 9 samples.

Results

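The 9 genes described here encode the enzymes that turn squalene into cholesterol, in the order Sqle, Lss, Cyp51, Tm7sf2, Msmo1, Nsdhl, Ebp, Sc5d and Dhcr7. They were taken by gene name from a count table of 49315 genes, and each name matched 1 gene. All 9 passed the filter on low counts, among 15963 genes tested. Their RNA was measured in RAW 264.7 cells, a transformed mouse macrophage line from which RANKL, a cytokine of the osteoclast lineage, can raise osteoclast-like cells. The first group received 140 µM pamidronate, a nitrogen-containing bisphosphonate, together with 5.25 µM geranylgeraniol (GGOH), an isoprenoid alcohol that cells can convert into geranylgeranyl diphosphate. The second group received 140 µM pamidronate alone, and the third, the control, received neither agent. RANKL at 20 ng/ml had been added to the cultures before the agents, as the growth notes describe, although the controls are labelled as untreated. The agents acted for 24 h at a single dose, each group had 3 libraries from 1 cell line, and a group given GGOH alone was not analysed here.

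Squalene is the first product of the isoprenoid pathway that is committed to sterols. Squalene epoxidase adds oxygen to it, lanosterol synthase closes the rings, and the later enzymes strip methyl groups from lanosterol and move or reduce its double bonds until cholesterol is formed. Transcription of many of these genes is raised by SREBP-2, a membrane-bound transcription factor that is released for the nucleus when the membranes of the endoplasmic reticulum hold little sterol. Pamidronate inhibits farnesyl diphosphate synthase, the enzyme that makes the precursor of squalene and of the geranylgeranyl group. Macrophages also take up sterol in lipoproteins and export it, so their own synthesis is one of several sterol sources.

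Short stretches of promoter are shown here because they carry a sequence feature that all matched members had. RefSeq promoters on GRCm38.p6 matched 8 of the 9 members, all but Sqle, with 10 start sites in all, since Dhcr7 had 3. Each window below has 30 bases, 5′ to 3′ on the strand of the gene, and the capitals mark CCAAT or its reverse complement ATTGG, the letters of the CCAAT box that the factor NF-Y is known to bind.

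Lss: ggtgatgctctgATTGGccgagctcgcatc

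Cyp51: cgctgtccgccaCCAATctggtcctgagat

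Tm7sf2: ctcccagcgctgATTGGctactgtgctggg

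Msmo1: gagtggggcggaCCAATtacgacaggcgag

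Nsdhl: aagactagcctcATTGGgcaaaatcatgct

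Ebp: atccctgtactgATTGGttcgtcagattcg

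Sc5d: cgccggctgctgATTGGccggctgcctgca

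Dhcr7: aatccacttccgATTGGtcgtctgtgacct

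The windows lie at chr10:76531531-76531560 on the plus strand for Lss, chr5:4104709-4104738 on the minus strand for Cyp51, and chr19:6067880-6067909 on the minus strand for Tm7sf2. That of Msmo1 is chr8:64733616-64733645 on the minus strand, that of Nsdhl chrX:72918489-72918518 on the plus strand, and that of Ebp chrX:8193550-8193579 on the minus strand. Sc5d has chr9:42264307-42264336 on the minus strand and Dhcr7 chr7:143830153-143830182 on the plus strand. The Dhcr7 window belongs to a start site 7069 bases downstream of the gene start in the deposited annotation, and the other 2 Dhcr7 start sites had no CCAAT within 250 bases. Over the 250 bases before a start site, on both strands, CCAAT was found for 8 of the 8 matched members and at 8 of their 10 start sites, against 33.8% of all 32851 promoters in the table. GGGCGG, the letters of the GC box, was found for the same 8 members and at 9 of the 10 start sites, against 32.7% of all promoters. No match of one shared bases with a match of the other in these promoters. TCACNCCAC, a form of the sterol regulatory element, was found at 0 of the 10 start sites and in 1.05% of all promoters, and TCACGTGA, an E-box, at 0 of the 10 and in 0.785%. These are letter matches in a short window and were compared with no binding data. Lss, Cyp51 and Msmo1, whose counts rose at least 2-fold with pamidronate, and Tm7sf2, Nsdhl and Ebp, which were not called higher, all had a CCAAT match.

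Library totals ran from 14356069 to 18957968 counts, and the 9 genes together took 0.0225% of counts in pamidronate + GGOH libraries, 0.0574% in pamidronate libraries and 0.0254% in controls. Mitochondrial genes took 5.43 to 6.31% of counts in pamidronate + GGOH libraries, 3.71 to 5.19% in pamidronate libraries and 10.4 to 10.8% in controls. At least 1 count was present for 25202 to 28054 genes with pamidronate + GGOH, for 24287 to 26635 with pamidronate and for 20558 to 22349 in controls. The 10 macrophage markers were all detected, with a summed CPM (counts scaled to library size) of 6829 to 9959 with pamidronate + GGOH, 4731 to 6700 with pamidronate and 16080 to 20826 in controls. Most of this sum was Lyz2, which averaged 5895, 4303 and 13708 CPM in that order. All but Cd68 (460, 629 and 1013 CPM) averaged lowest with pamidronate, though Cd14 differed little (681, 635 and 684 CPM). Mrc1 averaged only 0.208 CPM with pamidronate. The 10 osteoclast markers summed to 317 to 331 CPM with pamidronate + GGOH, 349 to 495 with pamidronate and 217 to 247 in controls, with Calcr at 0 with pamidronate and in controls. These markers did not move together. In the same order of groups, Atp6v0d2 averaged 126, 272 and 58.2 CPM and Ctsk 10.8, 32.9 and 4.70 CPM. Nfatc1 averaged 81.9, 84.8 and 134 CPM, and Mmp9 86.8, 17.7 and 27.1 CPM. The marker lists of stromal, epithelial, hepatic, T and B cells each summed to at most 3.63 CPM with pamidronate + GGOH, 2.11 with pamidronate and 11.7 in controls, where Pdgfra, Dcn, Lum, Epcam, Cdh1, Alb, Ttr, Cyp7a1, Cd3g, Cd8a and Ms4a1 were at 0. Most of the stromal sum in controls was Pdgfrb, which averaged 1.52, 0.581 and 9.89 CPM in that order of groups. The 4 endothelial markers summed to 17.4 to 43.4 CPM with pamidronate + GGOH, 5.56 to 7.25 with pamidronate and 0.876 to 1.24 in controls. Most of the sum in the first 2 groups was Tek, which averaged 28.4, 4.91 and 0.133 CPM in that order. Cdh5 averaged 1.38, 0.166 and 0.272 CPM, and Pecam1 and Kdr at most 0.83 and 0.90 CPM in any group. The part of these shifts in the results below was not tested. In bulk RNA, fewer cells of a type and less RNA per cell cannot be told apart.

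With pamidronate, the enzymes moved unevenly. Counts of Sqle, Lss, Cyp51 and Msmo1 were 2.52 to 4.05 times those of controls, Sc5d was 1.78 times as high, Dhcr7 was 1.17 times as high, and Ebp fell to 0.530 of the control level. Tm7sf2 and Nsdhl did not pass the test. So 6 of the 9 were called higher and 1 lower at an adjusted p under 0.05 (edgeR quasi-likelihood test, Benjamini-Hochberg over all genes tested), while 36.2% of all genes were called higher and 32.9% lower, 69.2% in all. The count of higher members was 5 with DESeq2 or with any 1 library left out, when Dhcr7 lost its call. A change of at least 2-fold was called for 4 of the 9 upward, against 21.5% of all genes, and for 0 downward, against 16.3%, with the same 2 counts from DESeq2 and limma-voom. The upward count was 5 with upper-quartile factors, which added Sc5d (1.03), and the downward count was 1 without pamidronate replicate 1, when Ebp was at -1.13. The median log2 fold change of the 9 was 0.83, and that of all genes tested was 0.08. The called members did not overlap between the groups in any library, which held for 7 of the 9 and for 73.4% of all genes.

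With GGOH added, 7 of the 9 were called lower than with pamidronate alone and 1, Ebp, was called higher, while 23.6% of all genes were called lower and 25.2% higher, 48.8% in all (same test). A fall of at least 2-fold was called for 5 of the 9, against 6.03% of all genes, and a rise of that size for 0, against 10.2%, counts that DESeq2 and limma-voom also gave. The median log2 fold change was -1.22, against 0.0026 over all genes. All 9 members had libraries that did not overlap between these groups, against 59.6% of all genes. The pamidronate group stands in both comparisons, so the 2 sets of fold changes are not independent.

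**Figure D1:**
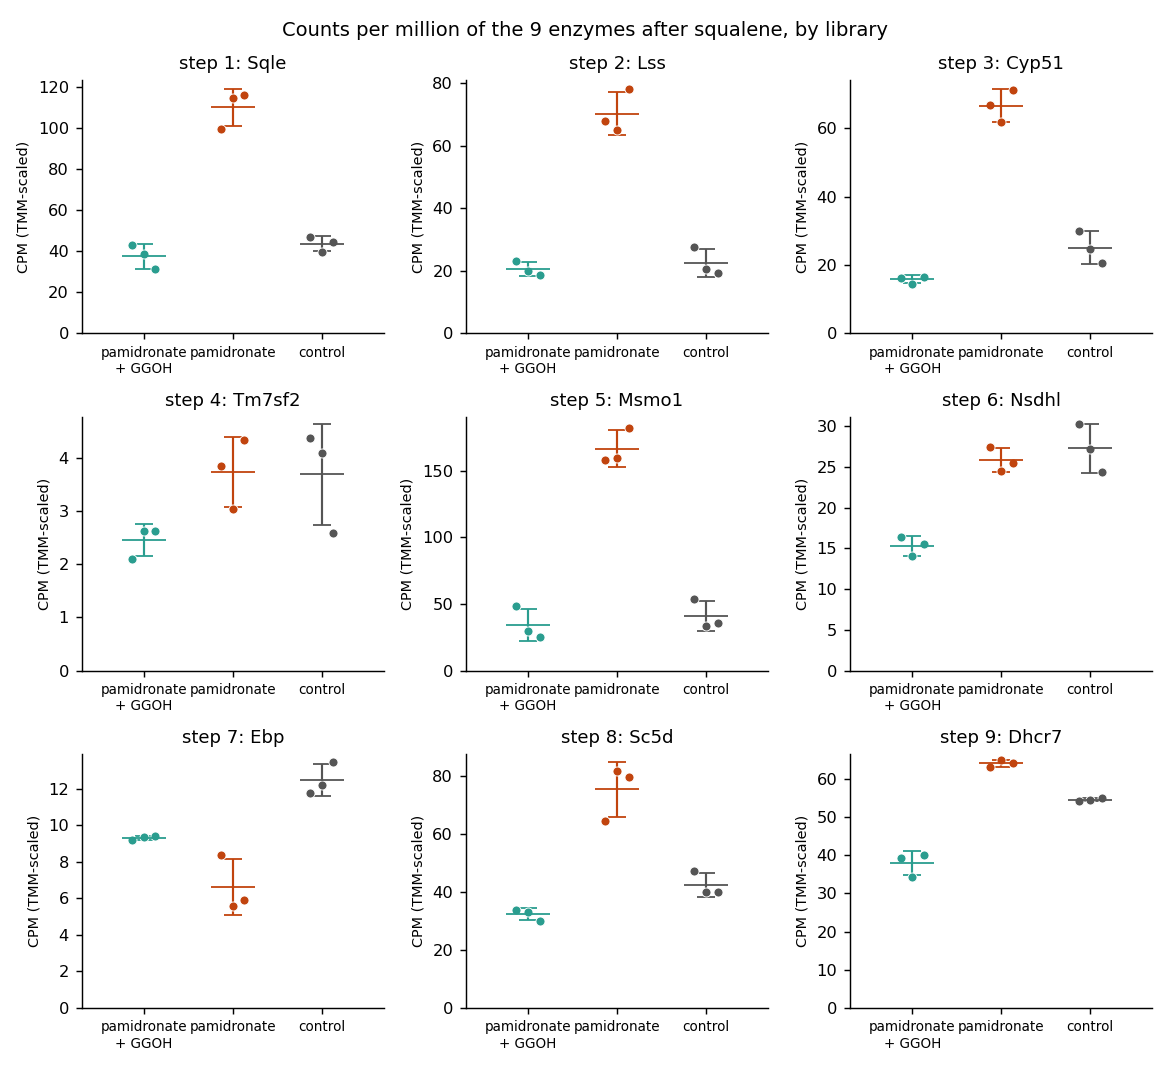
CPM (vertical axes, scaled with TMM factors) of the 9 enzymes in pathway order, 1 panel each, with axes that start at 0. Points are libraries, long bars the mean and short bars the SD of 3 libraries. Pamidronate libraries stand above both other groups for Sqle, Lss, Cyp51, Msmo1, Sc5d and Dhcr7, and below both for Ebp.

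Sqle, on chromosome 15 (59315077 to 59331192, plus strand, GRCm38), encodes squalene epoxidase, a rate-limiting oxygenase of the pathway. It had 43.1, 38.7 and 31.2 CPM in pamidronate + GGOH libraries, 99.7, 115 and 116 CPM in pamidronate libraries and 46.8, 39.5 and 44.8 CPM in controls. All pamidronate libraries were above every library of the other groups, which overlapped with each other. The log2 fold change was 1.33 ± 0.12 (SE) for pamidronate against control (adjusted p = 1.55e-07, edgeR) and -1.55 ± 0.12 for pamidronate + GGOH against pamidronate (adjusted p = 2.65e-07). Pamidronate + GGOH against control gave -0.21 ± 0.12 (adjusted p = 0.136), but -0.33 with an adjusted p of 0.0341 without pamidronate + GGOH replicate 1, and 0.02 when libraries were scaled to total counts without TMM factors.

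Lss, on chromosome 10 (76531588 to 76557138, plus strand), encodes lanosterol synthase, which folds epoxidised squalene into the first sterol. Its values were 23.0, 20.1 and 18.7 CPM with pamidronate + GGOH, 67.8, 64.8 and 78.0 CPM with pamidronate, and 27.6, 20.4 and 19.4 CPM in controls. The lowest pamidronate library had more than the highest of any other group, and control replicate 1 was above the other controls. Lss rose with pamidronate against control by 1.64 ± 0.13 on the log2 scale (adjusted p = 9.20e-08, edgeR) and fell by 1.77 ± 0.13 with pamidronate + GGOH against pamidronate (adjusted p = 3.01e-07). Against control, pamidronate + GGOH gave -0.13 ± 0.14 (adjusted p = 0.440), a sign that turned to 0.04 without control replicate 1, 0.07 with upper-quartile factors and 0.11 without TMM factors. An antisense gene, 4930483K19Rik, overlaps Lss on the other strand and had 103 counts over all libraries; strand use in the counting is not given in the sources used here.

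Cyp51, on chromosome 5 (4081145 to 4104746, minus strand), encodes the cytochrome P450 that removes a methyl group from lanosterol. It had 16.3, 14.5 and 16.7 CPM in pamidronate + GGOH libraries, against 66.9, 61.9 and 71.3 CPM in pamidronate libraries and 30.1, 24.7 and 20.5 CPM in controls. The 3 groups did not overlap, with pamidronate highest and pamidronate + GGOH lowest. The log2 fold changes were 1.41 ± 0.12 for pamidronate against control (adjusted p = 1.85e-07, edgeR), -2.07 ± 0.13 for pamidronate + GGOH against pamidronate (adjusted p = 6.29e-08) and -0.67 ± 0.13 for pamidronate + GGOH against control (adjusted p = 0.000671). Akap9, with 11817 counts over all libraries, overlaps Cyp51 by 166 bases on the other strand. Because strand use in the counting is not given, reads from these bases could belong to either gene.

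Tm7sf2, on chromosome 19 (6062821 to 6068373, minus strand), encodes a sterol reductase that acts on the double bond left by Cyp51, a step that the lamin B receptor Lbr can also carry out. It was the least expressed of the 9, with 37, 42 and 50 counts in pamidronate + GGOH libraries, 63, 48 and 70 in pamidronate libraries and 75, 73 and 42 in controls. In CPM these were 2.10, 2.62 and 2.63 with pamidronate + GGOH, 3.85, 3.04 and 4.34 with pamidronate, and 4.38, 4.09 and 2.60 in controls. All pamidronate libraries lay within the range of the controls, and every pamidronate + GGOH library was below every pamidronate library. Pamidronate against control gave a log2 fold change of 0.02 ± 0.24 (adjusted p = 0.950, edgeR), whose sign turned under several settings and reached -0.24 without control replicate 3. Pamidronate + GGOH gave -0.61 ± 0.24 against pamidronate (adjusted p = 0.0512) and -0.59 ± 0.24 against control (adjusted p = 0.0533). These lie next to the threshold, with adjusted p = 0.0405 against pamidronate without pamidronate replicate 2, 0.0460 without control replicate 1 and 0.0462 without control replicate 3, and 0.0131 against control without control replicate 3. Vps51 shares 532 bases with Tm7sf2 on the same strand and had 3401 counts over all libraries, against 500 for Tm7sf2, so the values of Tm7sf2 are uncertain.

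Msmo1, on chromosome 8 (64718139 to 64733792, minus strand), encodes the methylsterol monooxygenase that oxidises the remaining methyl groups to be removed. Its libraries had 48.2, 29.6 and 25.3 CPM with pamidronate + GGOH, 158, 159 and 182 CPM with pamidronate, and 54.0, 33.7 and 35.7 CPM in controls. Pamidronate libraries were far above the others, and replicate 1 was the highest of its group in both pamidronate + GGOH and control. Msmo1 had the largest estimate of the 9 enzymes in both comparisons with the pamidronate group, though its difference from the next one was not tested. The values were 2.02 ± 0.27 on the log2 scale for pamidronate against control (adjusted p = 0.000219, edgeR) and -2.28 ± 0.27 for pamidronate + GGOH against pamidronate (adjusted p = 0.000246). Pamidronate + GGOH against control gave -0.26 ± 0.27 (adjusted p = 0.442), and -0.60 with an adjusted p of 0.0270 without pamidronate + GGOH replicate 1.

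Nsdhl, on chromosome X (72918557 to 72958514, plus strand), encodes the dehydrogenase that follows Msmo1 and removes the oxidised carbon. It had 16.3, 14.0 and 15.5 CPM with pamidronate + GGOH, 27.4, 24.5 and 25.5 CPM with pamidronate, and 30.3, 27.2 and 24.4 CPM in controls. Pamidronate and control libraries overlapped, and all pamidronate + GGOH libraries were below both. Pamidronate against control gave a log2 fold change of -0.08 ± 0.11 (adjusted p = 0.524, edgeR), or 0.11 with upper-quartile factors. With pamidronate + GGOH, Nsdhl fell by 0.75 ± 0.11 against pamidronate (adjusted p = 8.13e-05, edgeR) and by 0.83 ± 0.11 against control (adjusted p = 4.29e-05).

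Ebp, also on chromosome X (8185329 to 8193512, minus strand), encodes the sterol isomerase that shifts a ring double bond. It had 9.20, 9.34 and 9.41 CPM in pamidronate + GGOH libraries, 8.37, 5.57 and 5.88 CPM in pamidronate libraries and 11.7, 12.2 and 13.5 CPM in controls. Pamidronate libraries were the lowest, pamidronate + GGOH libraries stood between, and no library overlapped with another group. The log2 fold change was -0.91 ± 0.16 for pamidronate against control (adjusted p = 0.000150, edgeR), the direction opposite to that of the 6 enzymes called higher. For pamidronate + GGOH it was 0.49 ± 0.16 against pamidronate (adjusted p = 0.0213), but the adjusted p was 0.105 without pamidronate replicate 2 and 0.0891 without pamidronate replicate 3. Against control it was -0.42 ± 0.16 (adjusted p = 0.0360), a call that was lost with upper-quartile factors (-0.22, adjusted p = 0.254), without TMM factors (-0.19, adjusted p = 0.342), with a stricter filter (adjusted p = 0.0571), without control replicate 2 or 3 (adjusted p = 0.0686 and 0.0962) and without pamidronate + GGOH replicate 1 or 2 (adjusted p = 0.0784 and 0.0842).

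Sc5d, on chromosome 9 (42251595 to 42264256, minus strand), encodes the desaturase that adds a double bond to the second ring. Its libraries had 33.9, 33.1 and 29.96 CPM with pamidronate + GGOH, 64.5, 81.8 and 79.8 CPM with pamidronate, and 47.1, 40.0 and 39.8 CPM in controls. No group overlapped with another, and the order was the same as for Cyp51. Sc5d rose with pamidronate against control by 0.83 ± 0.11 on the log2 scale (adjusted p = 7.71e-06, edgeR) and fell by 1.22 ± 0.11 with pamidronate + GGOH against pamidronate (adjusted p = 1.10e-06). Against control, pamidronate + GGOH gave -0.39 ± 0.11 (adjusted p = 0.00847), which was not called with upper-quartile factors (-0.19, adjusted p = 0.188) or without TMM factors (-0.15, adjusted p = 0.228).

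Dhcr7, on chromosome 7 (143823145 to 143848410, plus strand), encodes the reductase that removes a ring double bond of the product of Sc5d and can yield cholesterol. It had 39.2, 34.3 and 40.2 CPM with pamidronate + GGOH, 63.2, 65.0 and 64.2 CPM with pamidronate, and 54.3, 54.6 and 55.0 CPM in controls. The groups did not overlap, and the spread within the pamidronate and control groups was the smallest of the 9, with a coefficient of variation of 1.39% and 0.649%. Whether so small a spread is particular to Dhcr7 cannot be told from 3 libraries a group. The log2 fold change for pamidronate against control was 0.23 ± 0.08 (adjusted p = 0.0230, edgeR), and this call was lost with DESeq2 (adjusted p = 0.0521), without a filter on low values (0.15, adjusted p = 0.353) and when any 1 of the 9 libraries was left out (adjusted p = 0.0503 to 0.163). With pamidronate + GGOH it fell by 0.76 ± 0.09 against pamidronate (adjusted p = 6.91e-06, edgeR) and by 0.53 ± 0.09 against control (adjusted p = 0.000172).

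**Figure D2:**
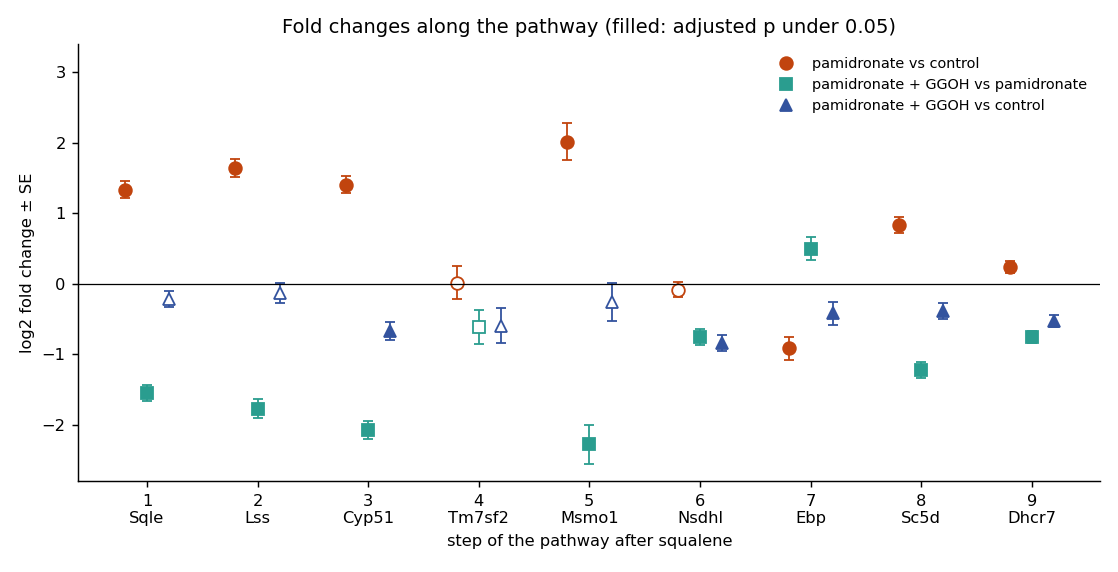
Log2 fold changes (vertical axis) with their SE derived from the edgeR test for the 9 enzymes in pathway order (horizontal axis), for pamidronate against control (circles), pamidronate + GGOH against pamidronate (squares) and pamidronate + GGOH against control (triangles). Filled symbols have an adjusted p under 0.05. The circles run from -0.91 for Ebp to 2.02 for Msmo1, with Tm7sf2 at 0.02 and Nsdhl at -0.08, and the signs of these last 2 turn under other settings.

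Set directly against control, pamidronate + GGOH left 5 of the 9 enzymes lower (Cyp51, Nsdhl, Ebp, Sc5d and Dhcr7) and 0 higher by the edgeR test, while 26.0% of all genes were called lower and 26.3% higher, 52.4% in all. All 9 fold changes were below 0 in the main fit, so the count of higher members was also 0 at an unadjusted p under 0.05, and DESeq2 and limma-voom called 0 as well. A fall of at least 2-fold was called for 0 of the 9, against 4.05% of all genes, and a rise of that size for 0, against 15.2%. The median over the 9 was -0.42, and that over all genes was 0.02. The 5 called enzymes were also those whose libraries did not overlap, against 58.2% of all genes. This comparison depended on how libraries were scaled. Upper-quartile factors moved the median of all genes to 0.23 and scaling without TMM factors to 0.26, and both left 3 of the 9 called lower, namely Cyp51, Nsdhl and Dhcr7. Over all genes, upper-quartile factors gave 5834 higher and 2600 lower calls, and scaling without TMM factors 6106 and 2303, against 4202 and 4157 with TMM factors. RLE factors added Tm7sf2, for 6 called lower. In pamidronate + GGOH against pamidronate, scaling without TMM factors gave 5280 higher and 2493 lower calls over all genes, against 4022 and 3762, and the members called again numbered 1 higher and 7 lower.

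Levels of different enzymes were compared per length, in the TPM (a count per exon length, scaled to a fixed sum per library) that the authors deposited, which share that dependence on scaling between groups. The 9 enzymes summed to 117 ± 8.29 TPM with pamidronate + GGOH, 268 ± 11.0 TPM with pamidronate and 127 ± 4.90 TPM in controls (SD, n = 3 each). Mean TPM was higher with pamidronate + GGOH than in controls for Sqle (19.3 and 17.8), Lss (5.43 and 4.69) and Msmo1 (15.9 and 15.0). Their edgeR fold changes in that comparison were below 0 in the main fit. For the remaining enzymes both measures were lower with pamidronate + GGOH. In controls the order was Nsdhl, Dhcr7, Sc5d, Sqle, Msmo1, Cyp51, Ebp, Lss and Tm7sf2, and neighbours in the order from Nsdhl to Ebp overlapped. Nsdhl averaged 21.6 ± 1.27 TPM and Ebp 12.3 ± 1.48 TPM there, with Lss at 4.69 ± 0.658 and Tm7sf2 at 2.38 ± 0.539 TPM apart from the rest (SD, n = 3).

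With pamidronate the order became Msmo1, Sqle, Sc5d, Cyp51, Dhcr7, Nsdhl, Lss, Ebp and Tm7sf2, and only Sc5d and Cyp51 overlapped as neighbours. Msmo1 averaged 67.3 ± 5.07 TPM with pamidronate and 15.0 ± 3.22 TPM in controls, taking the first place with pamidronate and the fifth in controls. Ebp averaged 7.13 ± 1.85 TPM with pamidronate and 12.3 ± 1.48 TPM in controls, and Nsdhl averaged 22.5 ± 1.85 and 21.6 ± 1.27 TPM (SD, n = 3 each). With pamidronate + GGOH the order was Sqle, Sc5d, Dhcr7, Msmo1, Nsdhl, Ebp, Cyp51, Lss and Tm7sf2. Its first 5 overlapped as neighbours, with Sqle at 19.3 ± 2.87 and Nsdhl at 15.3 ± 0.875 TPM. The exon length of Lss, 10787 bases over all its annotated transcripts, is the longest of the 9 and lowers its TPM.

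**Figure D3:**
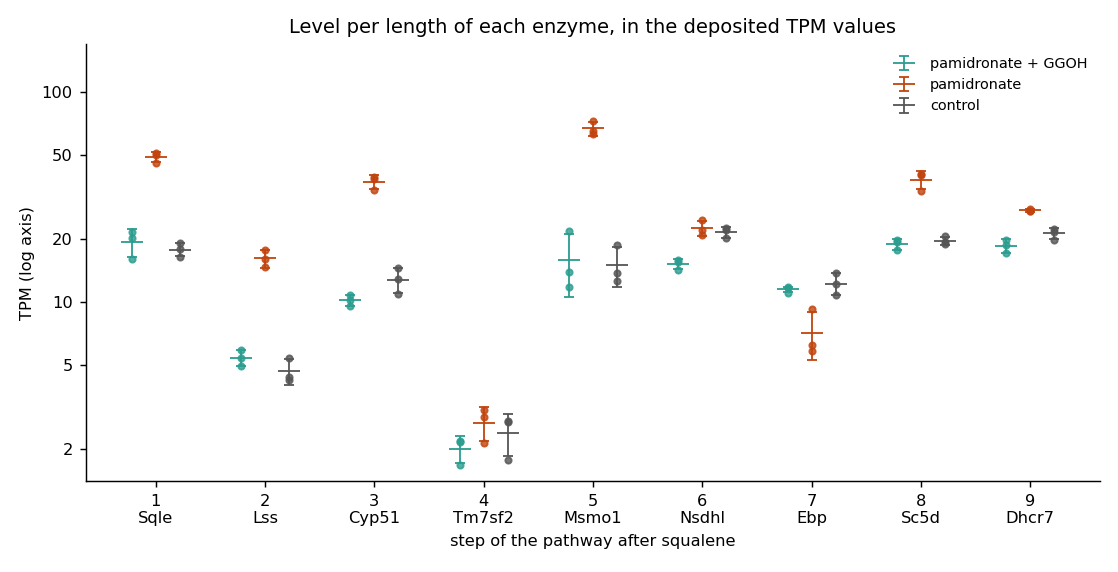
Deposited TPM (vertical log axis) of the 9 enzymes in pathway order (horizontal axis), with points for libraries, long bars for the mean and short bars for the SD of 3 libraries. Pamidronate means run from 2.67 TPM for Tm7sf2 to 67.3 TPM for Msmo1, and control means from 2.38 TPM for Tm7sf2 to 21.6 TPM for Nsdhl.

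The makeup of the set shifted with pamidronate. Msmo1 gave 13.4% ± 3.44 of the summed TPM of the 9 with pamidronate + GGOH, 25.1% ± 0.851 with pamidronate and 11.7% ± 2.04 in controls. Nsdhl gave 13.1% ± 0.897, 8.38% ± 0.769 and 16.9% ± 0.823 in the same groups, and Ebp gave 9.87% ± 0.972, 2.66% ± 0.723 and 9.65% ± 1.44. Sqle gave 16.5% ± 1.67 with pamidronate + GGOH, 18.4% ± 1.04 with pamidronate and 14.0% ± 1.06 in controls (SD, n = 3 for each share).

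The ratio of each enzyme to the one before it, taken within a library per length, does not depend on library scaling. With 3 libraries against 3, the exact two-sided permutation test cannot give a p under 0.1, and after Benjamini-Hochberg adjustment over 24 ratio tests the lowest value was 0.15, so no ratio could pass 0.05. The ratios of pamidronate and control libraries did not overlap for 7 of 8 steps, all but Lss to Sqle. No share over other gene pairs was computed, and 73.4% of single genes did not overlap in this comparison. Neighbouring ratios share an enzyme, so the 8 are not independent of each other. The ratio of Nsdhl to Msmo1 was 0.334 with pamidronate, against 1.46 in controls, and 0.996 with pamidronate + GGOH. Msmo1 was 25.3 times Tm7sf2 with pamidronate, against 6.29 times in controls. The ratio of Sc5d to Ebp was 5.45 with pamidronate and 1.60 in controls, and that of Tm7sf2 to Cyp51 was 0.0710 with pamidronate and 0.185 in controls. Ratios among the first 3 enzymes differed less, as Lss to Sqle was 0.328 with pamidronate and 0.262 in controls, and Cyp51 to Lss 2.32 with pamidronate and 2.73 in controls.

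Pamidronate + GGOH and pamidronate also did not overlap for 7 of the 8 ratios, again all but Lss to Sqle. Of single genes, 59.6% did not overlap in that comparison, and 58.2% between pamidronate + GGOH and control. Pamidronate + GGOH and control ratios did not overlap for 2 of 8 steps. Cyp51 to Lss was 1.88 with pamidronate + GGOH and 2.73 in controls, and Ebp to Nsdhl was 0.755 with pamidronate + GGOH and 0.567 in controls. Without control replicate 1 this count was 5 of 8, though leaving out a library narrows a range and cannot lower the count. Control replicate 1 had the highest CPM of its group for 7 of the 9 enzymes.

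Of 4 other genes listed for the later sterol steps, 3 were tested (Hsd17b7, Lbr and Erg28), and the remaining gene was not analysed here. With pamidronate against control, 0 of the 3 were called higher by edgeR and 1, Lbr, lower, against 36.2% and 32.9% of all genes. Hsd17b7 was also called lower with DESeq2, with RLE factors, with no filter, and without control replicate 2 or 3, pamidronate replicate 2, or pamidronate + GGOH replicate 1 or 2. Each count of 0 given for a list of other pathway genes was also 0 at an unadjusted p under 0.05, with DESeq2 and with limma-voom, and the exception under other settings is given with its list. Lbr, which shares a reaction with Tm7sf2, averaged 31.9 ± 7.95 CPM with pamidronate + GGOH, 19.4 ± 2.31 CPM with pamidronate and 59.6 ± 15.7 CPM in controls (SD, n = 3 each). Its log2 fold change was -1.62 ± 0.23 for pamidronate against control (adjusted p = 0.000154, edgeR). With pamidronate + GGOH against pamidronate, Lbr was higher (0.72 ± 0.23, adjusted p = 0.0279) and Hsd17b7 and Erg28 were lower (-0.45 ± 0.17, adjusted p = 0.0473, and -0.34 ± 0.13, adjusted p = 0.0400). Without pamidronate replicate 1, 2 or 3, or without pamidronate + GGOH replicate 3, 0 of the 3 genes were called. Over these 4 settings the log2 fold change was 0.55 to 0.77 for Lbr, -0.51 to -0.33 for Hsd17b7 and -0.36 to -0.32 for Erg28. The count of lower calls was also 0 without TMM factors, control replicate 2, or pamidronate + GGOH replicate 1 or 2, and 1 with DESeq2, limma-voom, RLE or upper-quartile factors, with no filter on low counts, or without control replicate 3. All 3 were called lower with pamidronate + GGOH than in controls, or 2 without TMM factors, against 26.0% of all genes in the main fit.

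Upstream of squalene, 8 of 10 enzymes were called higher with pamidronate than in controls and 1, mevalonate kinase Mvk, lower (-0.99 ± 0.24, adjusted p = 0.00198, edgeR), the direction that Ebp took after squalene. Over all genes 36.2% were called higher and 32.9% lower. Fdft1, squalene synthase, which makes the substrate of Sqle, averaged 14.5 ± 1.85 CPM with pamidronate + GGOH, 68.4 ± 5.67 CPM with pamidronate and 22.7 ± 3.30 CPM in controls. With pamidronate + GGOH, 0 of the 10 were called higher and 8 lower than with pamidronate alone, and 1 higher (Idi2) and 7 lower than in controls, or 5 lower with upper-quartile factors and without TMM factors. Over all genes, 25.2% were called higher and 23.6% lower than with pamidronate, and 26.3% higher and 26.0% lower than in controls. The Idi2 call was lost with limma-voom (adjusted p = 0.0541) and without control replicate 2 or pamidronate + GGOH replicate 1, and with the 2 groups compared alone 9 of the 10 were tested and 0 called higher. Several oxidative steps after squalene draw electrons from Por, the cytochrome P450 reductase, which averaged 91.7 ± 11.7 CPM with pamidronate + GGOH, 150 ± 7.67 CPM with pamidronate and 49.8 ± 1.63 CPM in controls. Por rose with pamidronate against control by 1.59 ± 0.10 on the log2 scale (adjusted p = 7.27e-09, edgeR), while Cyb5a, the cytochrome b5 that serves Sc5d and Msmo1, fell by 1.42 ± 0.13 (adjusted p = 2.36e-07). Of these 5 electron donors 2 were called higher and 3 lower with pamidronate against control, 3 higher and 2 lower with pamidronate + GGOH against pamidronate, and 2 higher and 1 lower (Cyb5b) with pamidronate + GGOH against control. The shares of all genes called in these comparisons are those given above in this paragraph. Lower calls with pamidronate + GGOH against control numbered 3, with Cyb5a and Cyb5r3 added, with RLE factors, with no filter on low counts and without pamidronate + GGOH replicate 3. They numbered 2 with DESeq2 or without control replicate 1 or pamidronate replicate 3. Cyb5b was not called lower with pamidronate + GGOH than with pamidronate without TMM factors (-0.24, adjusted p = 0.0625).

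**Figure D4:**
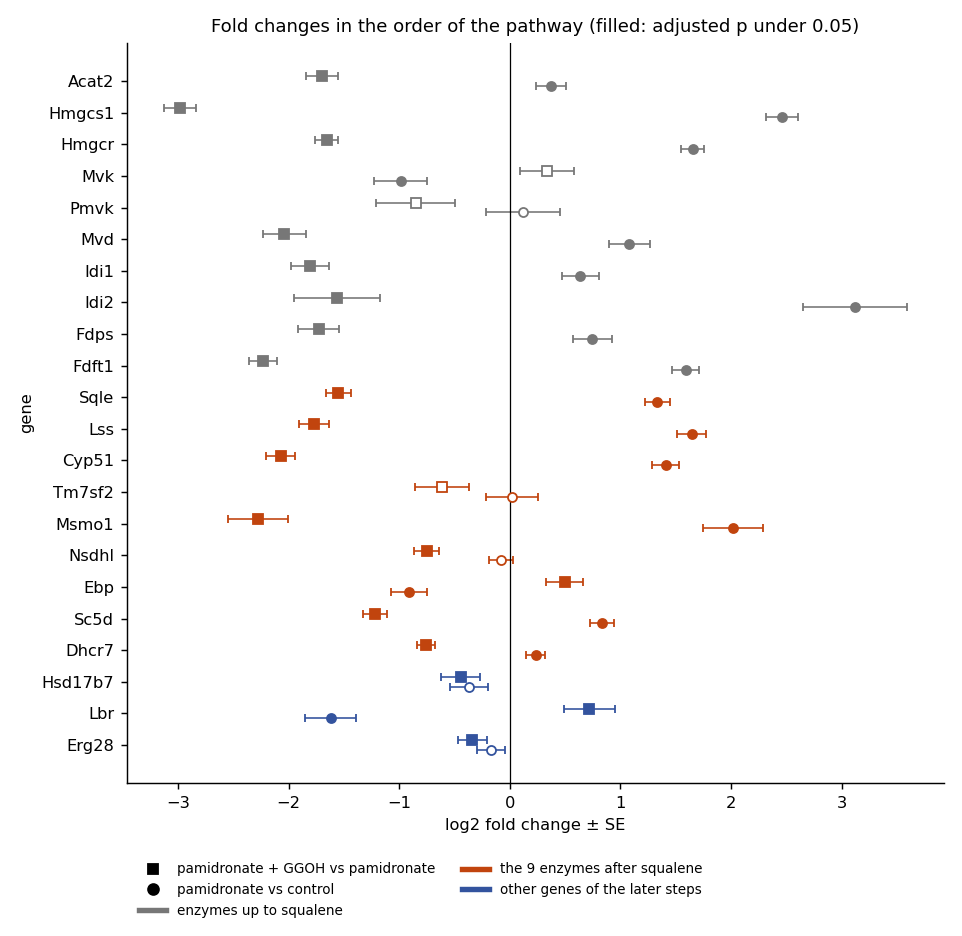
Log2 fold changes (horizontal axis) with their SE derived from the edgeR test for 22 genes of the pathway in order from top to bottom, for pamidronate + GGOH against pamidronate (squares) and pamidronate against control (circles). Filled symbols have an adjusted p under 0.05, and colours mark enzymes up to squalene, the 9 after it and other genes of the later steps. The circles of Mvk, Ebp and Lbr were called lower, at -0.99, -0.91 and -1.62. Those of Hsd17b7, Erg28 and Nsdhl also lie below 0, at -0.37, -0.17 and -0.08, without a call.

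Of 9 genes of sterol sensing and uptake, 3 were called higher with pamidronate than in controls (Srebf2, Insig1 and Stard4) and 2 lower (Scap and Mbtps2), by the same test. Over all genes 36.2% were called higher and 32.9% lower, so the count of higher genes was near that share. Srebf2, which encodes SREBP-2, averaged 105 ± 20.1 CPM with pamidronate + GGOH, 269 ± 21.4 CPM with pamidronate and 140 ± 21.5 CPM in controls (SD, n = 3 each). Scap, the escort protein that SREBP-2 needs to leave the endoplasmic reticulum, averaged 25.0 ± 3.84 CPM with pamidronate + GGOH, 14.3 ± 1.60 CPM with pamidronate and 32.4 ± 2.71 CPM in controls. With pamidronate + GGOH, 2 of the 9 were called higher and 4 lower than with pamidronate, and 0 higher and 5 lower than in controls. Over all genes, 25.2% were called higher and 23.6% lower than with pamidronate, and 26.3% higher and 26.0% lower than in controls. The count of 5 was 3 with upper-quartile factors, with the 2 groups compared alone or without pamidronate + GGOH replicate 2, and 2 without TMM factors. Of 7 tested genes of sterol use and export, 0 were called higher and 6 lower with pamidronate against control, against 36.2% and 32.9% of all genes. Among the lower ones was Cyp27a1, a sterol hydroxylase, at -2.82 ± 0.15 (adjusted p = 2.99e-09, edgeR). With upper-quartile factors 1 was called higher, Nr1h2 (0.28, adjusted p = 0.0107). These 7 gave 2 higher and 1 lower call with pamidronate + GGOH against pamidronate, against 25.2% and 23.6% of all genes. Soat1, called higher, lost its call without pamidronate replicate 1 or 3 or pamidronate + GGOH replicate 2 and with the replicate block (0.23, adjusted p = 0.0533). Nr1h2, the lower one, lost its call without TMM factors (-0.097, adjusted p = 0.385), when low counts were not filtered (adjusted p = 0.158), and without pamidronate replicate 3, control replicate 2 or any 1 pamidronate + GGOH library. Abca1, at -1.11 (adjusted p = 0.0822, edgeR), was called lower with DESeq2 (adjusted p = 0.0273), limma-voom (adjusted p = 0.0205), the 2 groups compared alone (adjusted p = 0.0345) and, at an adjusted p of 0.0376, when control replicate 1 was left out, for 2 lower. Against control, pamidronate + GGOH gave 0 higher and 5 lower, against 26.3% and 26.0% of all genes.

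Among the 10 genes whose log2 CPM over the 9 libraries was most like the centred mean of the 9 enzymes, members left out, were Sh2b2 (Pearson r = 0.991), Fdft1 (0.990), Ulk1 (0.989), Srebf2 (0.988), Ftsj1 (0.987), Usp38 (0.986), Mvd (0.985), Shprh (0.983) and Yipf6 (0.982), out of 9995 genes with at least 5 CPM on average. The libraries fall into 3 treatment groups, so this likeness mostly describes the group means and is given as a description. With Spearman's rho in place of r, 2 of the 10 genes were kept. Of the enzymes themselves, Cyp51 was closest to the mean pattern (r = 0.992), Sc5d had 0.977, Msmo1 0.955, Sqle 0.951, Lss 0.949, Dhcr7 0.904 and Nsdhl 0.735, and Ebp ran against it (-0.616). Each enzyme is itself part of that mean, and those with larger changes weigh more in it, so these values are not independent of it. Tm7sf2 was under 5 CPM and was not ranked.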

How the data were processed

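Raw counts for 49315 genes in 9 libraries, deposited by the authors, were the starting point, and the deposited files of single libraries held the same counts. Per the submitters' processing notes, reads were trimmed with Trimmomatic 0.36 and the build was GRCm38, with DESeq named without a version. No aligner, counter or strand setting is named in the sources used here. TPM values from the authors, equal to counts over exon length scaled to a fixed sum, were used only for levels. Samples were grouped by treatment label. The labels name separate replicates but not whether those of the treated groups came from separate cultures, so the p-values measure the spread between these samples, which may be technical. Library names with GGOH include a percentage tag of unstated meaning.

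Genes were filtered with filterByExpr, scaled with TMM factors and tested with the quasi-likelihood test of edgeR 4.0.16 (robust fit, R 4.3.3) in 1 model of the 3 groups, with Benjamini-Hochberg adjustment over 15963 genes and calls at an adjusted p under 0.05. Log2 fold changes and CPM values were computed here from the deposited counts. Step ratios used log2 of (count + 0.5) per exon base. The fit was checked on simulated data. The settings varied were the scaling (RLE, upper-quartile), the filter (none, stricter), the tool (DESeq2 1.42.0, limma-voom with limma 3.58.1), the groups in the model, a replicate block, the call rule, and each library left out. Scaling to total counts without TMM factors was added after seeing the data. Near-identical genes were sought with BLAST+ 2.17.0 (at least 90% identity over 300 bases), which returned, besides the Vps51 overlap, a Sc5d pseudogene with 2 counts. Within groups, libraries differed beyond counting noise (chi-square over its degrees of freedom 3.72 to 32.9).

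The 9 members, the gene lists and the marker lists were chosen with earlier results of these data known. All 9 members are named, other pathway genes are counted as lists and named where called or as examples, and the 10 genes of like pattern are those with the highest correlation. Some genes of these lists are not reported here. Depth limits Tm7sf2 most, at 37 to 75 counts per library.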

Additional observations from a re-analysis of the deposited data

How the results depend on the processing

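Of 486 recomputed member fold changes, 441 kept their direction and their side of the threshold, 22 lost the call, 8 gained one and 15 changed sign. Under the 2 stricter call rules, 40 of 54 member results kept their side of the threshold and 14 lost the call. With 1 library left out, the step ratios kept their direction in pamidronate against control and in pamidronate + GGOH against pamidronate. In pamidronate + GGOH against control, some log2 differences near 0 changed sign. These ran from -0.0093 to 0.21 for Lss to Sqle and from -0.019 to 0.22 for Tm7sf2 to Cyp51. Msmo1 to Tm7sf2 ran from -0.10 to 0.52 and Sc5d to Ebp from -0.065 to 0.15. Requiring a 2-fold change left 6047 genes for pamidronate against control, 2590 for pamidronate + GGOH against pamidronate and 3079 for pamidronate + GGOH against control, and left 0 members lower in the first, 0 higher in the second and 0 lower in the third. At an adjusted p under 0.01, 0 members were higher with pamidronate + GGOH than with pamidronate. Members lower with pamidronate + GGOH than in controls numbered 3 with upper-quartile factors and 3 without TMM factors.

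Signs changed for fold changes near 0. Tm7sf2 with pamidronate against control was -0.013 with RLE factors and with DESeq2, -0.0066 with the 2 groups alone, -0.068 with no filter, and -0.24 to 0.15 with 1 library left out. Nsdhl in that comparison was 0.11 with upper-quartile factors. For pamidronate + GGOH against control, Sqle was 0.018 without TMM factors, and Lss was 0.072 with upper-quartile factors, 0.11 without TMM factors and -0.24 to 0.035 with 1 library left out. The cause was not tested.

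With 1 library left out, all-gene calls ran from 10207 to 11433, 6590 to 8215 and 6923 to 8932 in the 3 comparisons as ordered above. Members called were 5 higher and 1 lower in the first, 0 to 1 higher and 7 to 8 lower in the second, and 0 higher and 4 to 6 lower in the third. Steps whose ratios did not overlap numbered 7 to 8, 7 to 8 and 2 to 5. Leaving out a library can only narrow a range, so these counts could not fall below those of all libraries.

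Correlations of deviations from the group means ran from -0.22 to 0.20 for libraries of the same replicate number. For libraries of different numbers they ran from -0.22 to 0.18. Deviations within a group of 3 sum to 0, so these values cannot decide whether the numbers pair the libraries. A fit with the replicate block called 10980, 7622 and 8275 genes, against 11042, 7784 and 8359 without it, and the members called were as before in number. Among other pathway genes, the block ended the Soat1 call given above.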
